A study of Mus musculus with 26 samples.

Results

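Resting oligodendrocyte precursor cells (OPCs) at postnatal day 7 (P7) are the wells that held OPC transcripts, few transcripts of committed or myelinating cells and few mitotic transcripts. A well was a member if it came from 1 of 15 P7 chips, held at least 1000 molecules and had at least 5 molecules of *Pdgfra*, *Cspg4*, *Lhfpl3*, *C1ql1* and *Olig1* summed. It also had fewer than 5 molecules of *Bmp4*, *Gpr17*, *Bcas1* and *Enpp6*, fewer than 3 of *Top2a*, *Mki67*, *Birc5*, *Ube2c*, *Cdk1* and *Ccnb1*, and fewer than 3 of *Col1a1*, *Col1a2*, *Col3a1*, *Lum* and *Dcn*. Transcripts of *Mbp*, *Mag*, *Mog*, *Mobp* and *Mal* made up less than 0.4% of its molecules. Of 920 wells with at least 1000 molecules on these chips, 193 were members, out of 1514 such wells in the whole series. The wells were thus chosen by their own molecule counts for these genes, so the levels of these genes and every contrast with the other classes of wells are given as descriptions.

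The study sorted GFP+ cells from the embryonic day 13.5 (E13.5) and P7 mouse central nervous system onto Fluidigm C1 chips of 96 wells, and counted in each well the 5′ ends of its RNA as molecules (unique molecular identifiers). At P7 there were 4 groups, with 1 chip as the replicate. Spinal cord (4 chips) and brain (2 chips) came from *Pdgfra*-H2BGFP mice, in which a nuclear GFP is made from the *Pdgfra* locus and outlasts the mRNA. The 2 other groups were brain cells from *Pdgfra*-cre-ERT/RCE mice, in which tamoxifen turns on GFP permanently in cells that express *Pdgfra* at that time. Tamoxifen was given at E12.5 (txE12.5, 6 chips) or at P3 (txP3, 3 chips), and the cells were taken at P7. The H2B-GFP mice were heterozygous on a C57BL/6NJ background, and the lineage-traced mice were of mixed C57BL/6NJ and CD1 background. The paper names both sexes for the H2B-GFP mice and says that sex was randomized. Sex-linked transcripts differed between experiments, as given below. In the column names each group other than txE12.5 carried 1 Sample number, 136 (spinal cord), 56 (brain) and 163 (txP3), whereas txE12.5 carried 161 and 162. Each Sample number is taken here as 1 experiment, which the names themselves do not say. Spinal cord and H2B-GFP brain share the reporter, and the 3 brain groups share the region, but every comparison between groups is also one between experiments. Group and experiment therefore cannot be told apart, nor reporter and strain background.

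OPCs are the cells from which oligodendrocytes arise. They carry the PDGF receptor alpha and the proteoglycan NG2, encoded by *Cspg4*, divide in response to PDGF, and receive synaptic input through glutamate and GABA receptors. On leaving the precursor state they switch on *Gpr17*, *Bmp4* and *Enpp6* and then the genes of myelin, which in mice are made from the first postnatal weeks, in the spinal cord earlier than in the forebrain.

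Resting OPCs were a minority on every chip. The spinal cord chips held 7, 8, 7 and 4 members, 26 of 211 wells, or 11.4 to 14.8% of the wells of a chip. On the brain chips of the H2B-GFP line 14 and 14 wells were members (28 of 108 wells, 23.7 and 28.6%). In txE12.5 brain 80 of 404 wells were members (10.9 to 29.2% per chip, median 19.6%), and in txP3 brain 59 of 197 (19.3 to 41.4%, median 27.1%). The spinal cord shares lay below both brain chips of the same line and below the 3 txP3 chips, and overlapped those of txE12.5. No test was made, since the rule fixed the members. Members held a median of 2165 molecules (range 1026 to 6628) and 1248 genes, which summed to 14232 to 65733 molecules per chip and 451091 in all.

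**Figure D1:**
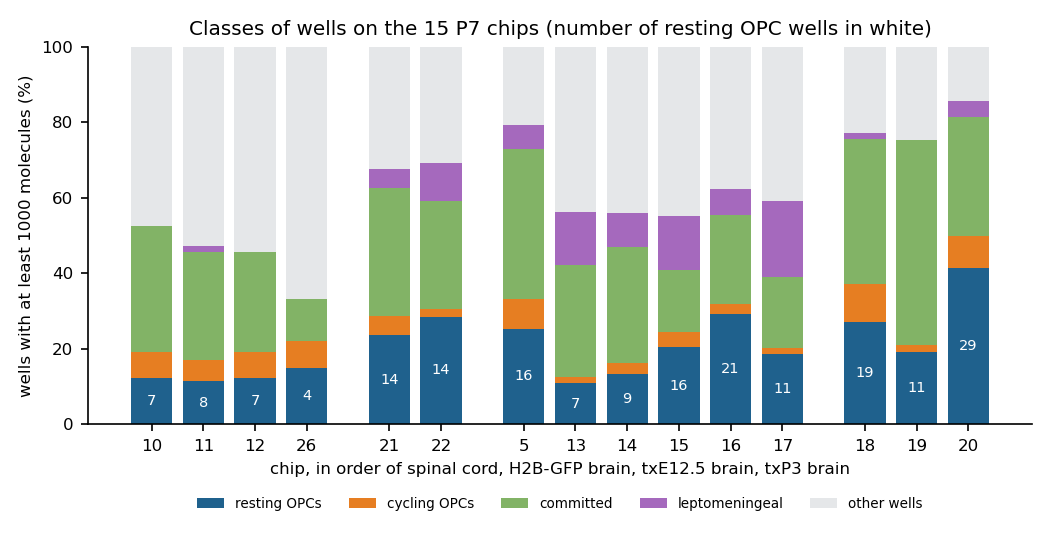
Percent of wells with at least 1000 molecules on each of the 15 P7 chips that fell into each class, stacked by class and ordered by group, with the number of resting OPC wells printed in white. Spinal cord chips had 4 to 8 resting OPC wells, and brain chips 7 to 29.

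The border of the class that most wells lay on was the committed sum. Of the wells outside, 277 failed only this condition, and 46 failed only the mitotic one. Wells stood close together at the committed border, with 32 members at a sum of 4 and 36 wells outside at a sum of 5. At the mitotic border 6 members had a sum of 2 and 4 wells outside had 3, and at the OPC border 10 members had 5 and 7 wells outside had 4. The myelin border fell in a gap, since the highest member had 0.378% and the 1 well that failed only this condition had 0.698%.

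The rule fixed that marker genes were found in the members, so their shares are a description. *Pdgfra*, the receptor for PDGF, was seen in 189 of 193 members, *Olig1*, a basic helix-loop-helix factor of the lineage, in 174, *Cspg4* in 157, *Lhfpl3*, a gene of OPCs, in 143 and *C1ql1*, a secreted complement-like protein, in 66. In the 60 leptomeningeal wells of these chips (at least 10 molecules of the collagen sum), *Cspg4* was seen in 6.67% and *C1ql1* in 0%, at a median depth of 2990 molecules against 2165 in the members. *Pdgfra* was also present in 61.7% of the leptomeningeal wells, which belong to a cell type that expresses it. The label was checked against markers of other cell types, which the rule did not use. At least 3 molecules of a marker list of another cell type were found in 71 members, of which 59 met this for astrocyte markers, 10 for neuron markers, 2 for microglia, 2 for endothelium and 1 for pericytes. The astrocyte list summed to 982 CPM, mostly from the glutamate transporters *Slc1a3* (534 CPM, 101 wells) and *Slc1a2* (277 CPM, 72 wells), which precursors also express. Of its other 8 genes *Slc7a10* was seen in 16 wells, *Aldoc* in 14, *Gja1* in 8, *Aqp4* in 4, *Aldh1l1* and *Gjb6* in 3 each, *Agt* in 2 and *Gfap* in 0.

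The 1 member with at least 3 molecules of pericyte markers went against the label. This well of spinal cord chip 26 had 2614 molecules, 7 of *Cspg4* and 0 of *Pdgfra*, together with 16 of *Rgs5*, 8 of *Kcnj8*, 8 of *Pdgfrb* and 18 of *Vtn*, genes of pericytes, a contractile cell of small vessels that also carries NG2. Its pericyte list summed to 63 molecules. Off that chip the highest pericyte sum among 189 members was 1. Chip 26 had only 4 members and did not reach the minimum of 5 wells for the tests, so none of the tests below includes it unless that is stated. Of the wells at E13.5, 4 of 502 met the molecule part of the rule (0.797%).

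*Pdgfra* was the most abundant of the 5 marker genes in sums over the members, at 2744 CPM, its molecules scaled to a common total of all molecules. Summed over the 46 cycling wells it stood at 2054 CPM and over the 277 committed wells at 1821 CPM. *Olig1* stood at 1445, *Cspg4* at 982, *Lhfpl3* at 929 and *C1ql1* at 299 CPM in the members. Of the genes the rule kept low, *Gpr17*, a receptor that marks cells leaving the precursor state, was still the commonest, in 76.2% of members and at 716 CPM against 3220 CPM in the committed wells. *Bmp4* (5 wells) and *Enpp6* (7 wells) were close to 0.

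**Figure D2:**
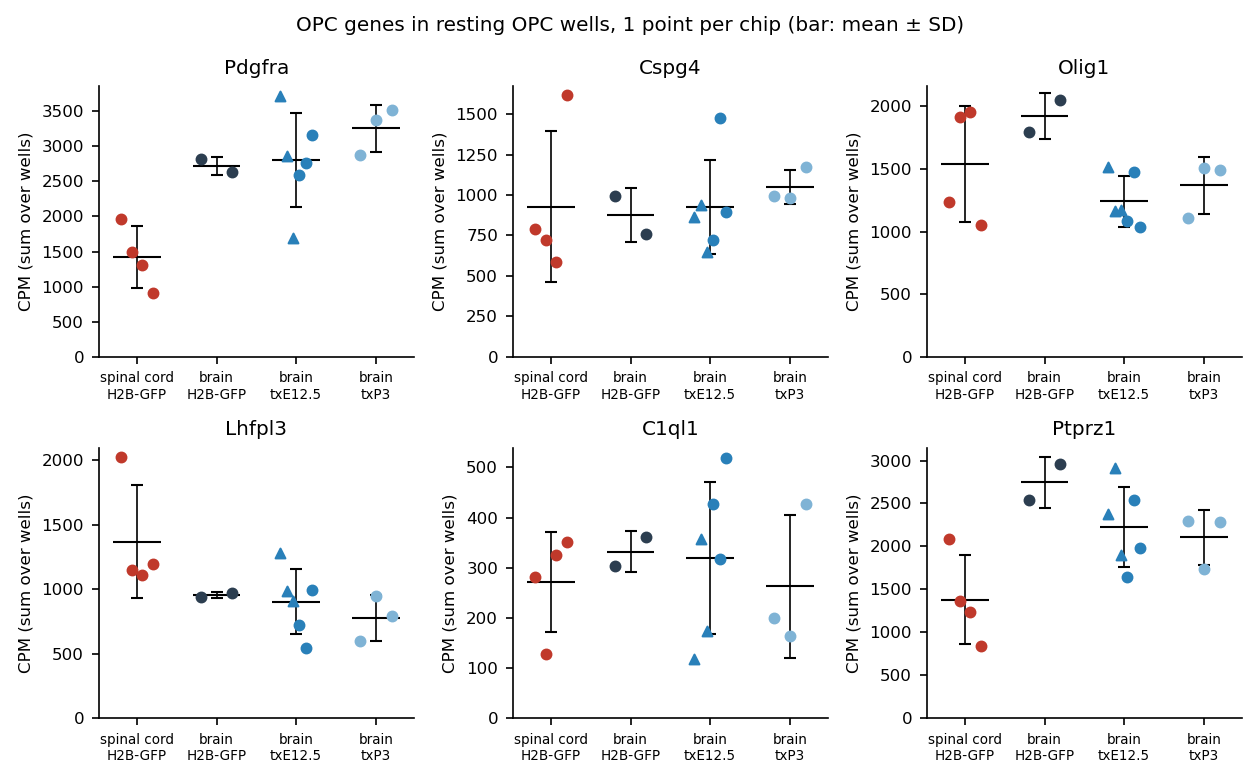
Scaled molecule counts (CPM) over the summed resting OPC wells of each chip, for 5 marker genes of the rule and for *Ptprz1*, by group, with each point 1 chip and bars giving the mean ± SD. *Pdgfra* spanned 913 to 1969 CPM on the 4 spinal cord chips and 1689 to 3717 CPM on the 11 brain chips.

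Among genes outside the rule, transcripts of proteoglycans and adhesion molecules were common in the members, but not only there. The matrix and proteoglycan list summed to 12230 CPM in the members, 9243 in cycling, 10185 in committed and 9914 in leptomeningeal wells. Synaptic adhesion molecules summed to 6300, 4920, 6894 and 1583 CPM in the same order. *Serpine2*, a secreted protease inhibitor, stood at 3325 CPM in the members, 2859 in cycling, 2649 in committed and 1080 in leptomeningeal wells. *Ptprz1*, a receptor phosphatase that carries chondroitin sulfate, stood at 2159, 1873, 1781 and 104 CPM in the same order. Other proteoglycans of this set were *Bcan* (brevican) at 1348, *Sdc3* (syndecan 3) at 1264 and *Cspg5* (neuroglycan C) at 1071 CPM. The adhesion molecules *Cntn1* (contactin) at 1277 and *Ncam1* at 1020 CPM were as widely found, *Cntn1* in 82.9% of wells. *Fabp7*, a fatty acid carrier of immature glia, reached 4199 CPM and was seen in 186 of 193 members, and stood at 2819 CPM in cycling and 2758 CPM in committed wells.

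Receptors and channels were found at lower counts. *Ednrb*, the endothelin receptor B, stood at 1288 CPM and was seen in 74.1% of members, against 651 CPM in cycling and 1080 CPM in committed wells. The AMPA receptor subunit *Gria2* was seen in 77.2% of members (1177 CPM), against 28.3% of leptomeningeal wells (156 CPM). *Gabrb2* and *Gabrg1*, subunits of the GABA-A receptor, were seen in 27.5 and 19.7% of members and in 1.67 and 0% of leptomeningeal wells. Cycling and committed wells lay closer to the members. The glutamate receptor list summed to 2820 CPM in members, 2537 in cycling and 2644 in committed wells. The GABA receptor list summed to 745, 611 and 592 CPM in the same order. *Kcnd2*, a potassium channel of the A-type current, and its binding partner *Kcnip3* were seen in 38.9 and 48.7%, and the sodium channel *Scn3a* in 36.3%. Among lineage factors *Olig2* stood at 665 and *Sox10* at 592 CPM.

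Genes of cell division outside the rule were low in the members. The mitotic list summed to 326 CPM in the members, 291 in committed and 6934 CPM in cycling wells. The replication list summed to 995, 827 and 3000 CPM, and histone genes to 516, 418 and 3255 CPM in the same order. *Ccnd1*, the cyclin of the G1 phase, did not follow them: it stood at 474 CPM in the members, 413 in committed and 456 CPM in cycling wells. Differentiation genes outside the rule summed to 7548 CPM in members and 13065 CPM in committed wells. Among these, the tetraspanin *Cd9* stood at 1374 against 2495 CPM. Immediate early genes summed to 1239 CPM in the members and 7677 CPM in leptomeningeal wells, of which *Fos* was 131 and 1365 CPM.

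The comparison of spinal cord with brain in the H2B-GFP line asks whether resting precursors of the 2 regions differ. *Ednrb* and *Cd9* were lower in spinal cord, and *Gm9846*, *Ybx1* and *Rps19* were higher. Of 970 genes tested on the 3 spinal cord and 2 brain chips with enough members, 12 (1.24%) passed an adjusted p of 0.05 (edgeR's quasi-likelihood test with Benjamini-Hochberg adjustment), 6 higher (0.619%) and 6 lower (0.619%) in spinal cord, and 115 (11.9%) had an unadjusted p under 0.05. DESeq2 called 6 genes (0.254% of those it adjusted). The median log2 fold change of all tested genes was -0.06. The calls depended on which wells and chips entered. The count was 3 without brain chip 21, 4 without brain chip 22 and 7 without spinal cord chip 12, and 30 (13 higher and 17 lower, of 467 genes tested) with only the 5 compared chips in the fit. No gene was called with wells of at least 2000 molecules (47 at an unadjusted p under 0.05). None was called without wells holding markers of other cells (37 at an unadjusted p under 0.05, of 395 genes tested). Both settings also dropped a spinal cord chip that fell below the minimum of 5 members. Chip 12 kept 4 wells of at least 2000 molecules, and chip 10 kept 4 wells without other markers.

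*Ednrb*, at chr14:103814625-103844402 on the minus strand of GRCm38, was the called gene that kept its call in the most alternatives. It stood at 338, 213 and 326 CPM on spinal cord chips 10, 11 and 12, and at 1681 and 1982 CPM on brain chips 21 and 22. All 3 spinal cord chips lay below both brain chips, with a log2 fold change of -2.72 (SE 0.46) and an adjusted p of 0.000157 by edgeR's quasi-likelihood test. Such a lack of overlap, in either direction, was found for 273 of 970 genes (28.1%). Chip 26, with 4 wells, stood at 1054 CPM, above the other spinal cord chips and within the range of the brain, and with it in the fit the log2 fold change was -2.06 and *Ednrb* was still called. Brain chips of the lineage-traced mice had 945 to 1611 CPM (txE12.5) and 1410 to 1795 CPM (txP3). Against them the log2 fold change of spinal cord was -2.21 (adjusted p = 0.000393 by edgeR) and -2.55 (adjusted p = 0.000159). The call was made in 14 of 16 alternatives, adjusted p 6.01e-08 to 0.183. It was lost with wells of at least 2000 molecules, a fit that lacked spinal cord chip 12 (log2 fold change -2.52, adjusted p = 0.0588 by edgeR). It was also lost without wells holding other markers, a fit that lacked spinal cord chip 10 (-2.01, adjusted p = 0.183 by edgeR). The astrocyte list moved with it, at 211 to 1023 CPM on the 4 spinal cord chips and 1075 and 1333 CPM on the 2 H2B-GFP brain chips, though its range was 567 to 2551 CPM in txE12.5 and 669 to 1040 CPM in txP3, overlapping spinal cord. Of its 2 tested genes, *Slc1a3* had a log2 fold change of -1.88 (adjusted p = 0.128 by edgeR) and *Slc1a2* 0.23. The fit without wells holding other markers cannot show the part of this list, since it also had fewer wells and lacked spinal cord chip 10. The part of this list in the difference was not tested.

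*Cd9*, encoding a tetraspanin that rises as precursors differentiate, stood at 394, 938 and 781 CPM in spinal cord (422 on chip 26) and at 3059 and 2378 CPM in brain. The groups did not overlap, as was the case for 28.1% of the genes (log2 fold change -1.98, SE 0.42, adjusted p = 0.00361 by edgeR). Its levels in txE12.5 (833 to 1871 CPM) and txP3 (1017 to 1615 CPM) lay between those of spinal cord and H2B-GFP brain or overlapped spinal cord. Against these groups the log2 fold change was -0.94 and -0.94, with adjusted p of 0.185 and 0.392 by edgeR. The call was also lost without brain chip 21 (log2 fold change -1.80, adjusted p = 0.139 by edgeR). The same held with wells of at least 2000 molecules (-1.57, 0.320) and without wells holding other markers (-1.45, 0.20), fits that each lacked a spinal cord chip. The call was made in 11 of 16 alternatives, adjusted p 5.88e-07 to 0.392. The committed sum, which the rule caps in molecules per well, was 456 to 900 CPM in spinal cord and 799 to 1045 CPM in H2B-GFP brain. The median member held 2490.5 and 2216.5 molecules in these groups. The part of this cap in the *Cd9* difference was not tested. With each of the 5 chips left out in turn, 5 of 5 fits called *Ednrb* and *Xist*, 4 called *Cd9* and *Ybx1*, 3 *Gm9846*, *Gapdh* and *Hnrnpd*, 2 *Rps19*, 1 *Eef1a1* and *Gm13826*, and 0 *S100a13* and *Gm15772*.

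The remaining lower genes were *Gapdh*, a glycolytic enzyme (log2 fold change -3.48, adjusted p = 0.00823 by edgeR), *S100a13*, a calcium-binding protein (-2.39, 0.0244), *Gm13826* (-2.64, 0.0283) and *Xist*, which was at 0 in spinal cord and at least 27.4-fold lower. Reads of *Gm13826* and of *Rpl37*, of which the RefSeq table gives it as a retrocopy (*Rpl37rt*), may have been split by the counting. Their sum was 426 to 843 CPM on the 4 spinal cord chips and 965 to 1009 CPM on the 2 brain chips, and 943 to 1279 CPM in txP3, but 313 to 1515 CPM in txE12.5, which overlaps spinal cord.

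Higher in spinal cord were *Gm9846* (log2 fold change 2.05, adjusted p = 0.00361 by edgeR), *Ybx1*, a protein that binds mRNA (2.77, 0.00672), *Rps19*, of the small ribosomal subunit (2.78, 0.0176), *Gm15772*, annotated as a processed pseudogene (2.32, 0.0488), *Eef1a1*, the elongation factor (1.55, 0.0488), and *Hnrnpd*. *Gm9846* is given by the RefSeq table as *Rps27rt*, a retrocopy of *Rps27*, whose own entry was at 0 on every chip. Molecules of *Rps27* may therefore have been counted under *Gm9846*. The *Gm9846* count stood at 3368 to 4075 CPM on the 4 spinal cord chips and at 357 to 1819 CPM on the 11 brain chips. Chip 26 lay with its group, and no chip overlapped. *Hnrnpd* was at 0 on both H2B-GFP brain chips and at least 9.43-fold higher in spinal cord, counted against a floor of 3 molecules over the group, but was also at 0 on spinal cord chip 26 and txE12.5 chip 14.

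**Figure D3:**
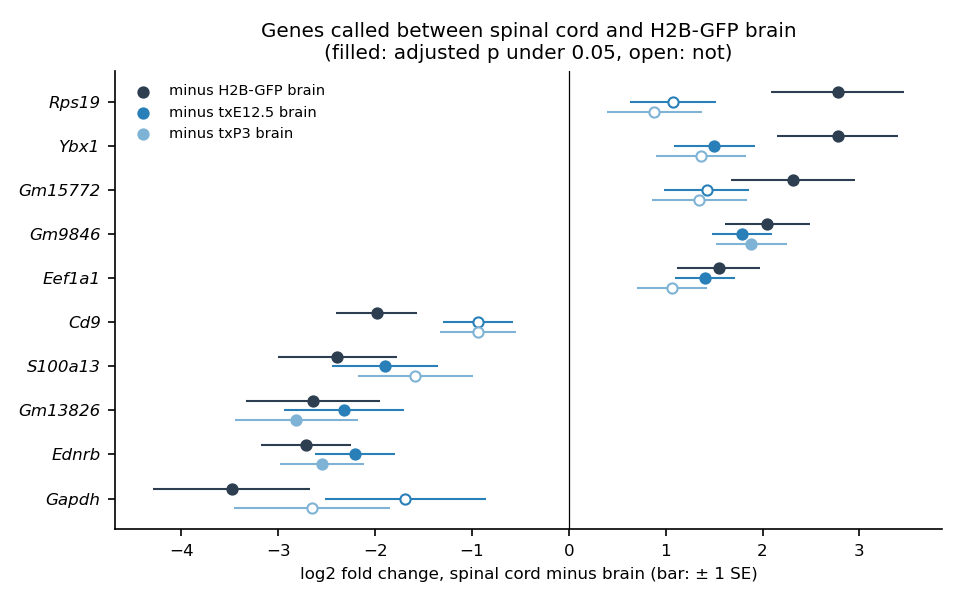
Log2 fold change (± 1 SE, edgeR) of spinal cord against each of the 3 brain groups, for 10 genes called in the H2B-GFP line (*Xist* and *Hnrnpd*, each at 0 in a group, are not drawn), with filled points marking an adjusted p under 0.05. *Ednrb*, *Gm13826* and *Gm9846* are filled against each brain group, and *Cd9* is filled against H2B-GFP brain and open against the others.

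The spinal cord chips were also set against each brain group in turn. Spinal cord differed from txE12.5 brain in 18 genes (1.86%) and from txP3 brain in 9 (0.928%). Called against each of the 3 brain groups were 3 genes, *Ednrb*, *Gm13826* and *Gm9846*, and against both lineage-traced groups 7, which added *Dpysl3*, *Malat1*, *Rps23* and *Tmx1*. The summed *Gm13826* and *Rpl37* counts, by contrast, overlapped between spinal cord and txE12.5, and the *Gm9846* count may hold molecules of *Rps27*. These comparisons share the spinal cord chips. Against all brain chips 24 genes passed (2.47%), of which 11 were among the 12. In the levels of all 15 chips, 24 of 970 genes (2.47%) did not overlap between the 4 spinal cord and 11 brain chips, 17 higher (1.75%) and 7 lower (0.722%) in spinal cord.

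The levels of the 5 marker genes, by which the wells were chosen, are given without a test. *Pdgfra* stood at 1969, 1492, 1302 and 913 CPM on the 4 spinal cord chips (the last is chip 26) and at 2811 and 2631 CPM in H2B-GFP brain. These groups did not overlap, as was the case for 28.1% of the tested genes on the chips of the fit. *Cspg4* had 586 to 1616 CPM in spinal cord and 992 and 757 CPM in brain, *Lhfpl3* 1107 to 2025 against 937 and 973 CPM, *C1ql1* 128 to 351 against 303 and 360 CPM, and *Olig1* 1054 to 1953 against 1792 and 2054 CPM. Outside the rule, *Ptprz1* had a log2 fold change of -0.86 (95% interval -1.59 to -0.14, adjusted p = 0.277 by edgeR), *Fabp7* -1.07 (-1.75 to -0.39, adjusted p = 0.130), *Gria2* -1.26 (-2.15 to -0.36, adjusted p = 0.208), *Bcan* -0.50 (-1.36 to 0.35) and *Sox10* -0.33 (-1.38 to 0.71).

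By role, few lists held a called gene, read against 1.24% called and 11.9% at an unadjusted p under 0.05 over all genes. Of 7 tested receptors 1 (*Ednrb*) was lower, 1 had an unadjusted p under 0.05 and the median log2 fold change was -0.96, against -0.06 for all genes. Of 12 differentiation genes 1 (*Cd9*) was lower, 2 had an unadjusted p under 0.05 and the median was 0.04. Of 65 ribosomal protein genes 1 (*Rps19*) was higher, 13 had an unadjusted p under 0.05 and the median was 0.15. No gene was called among 17 lineage transcription factors (median 0.36, 1 at an unadjusted p under 0.05), 12 matrix and proteoglycan genes (-0.25, 1), 11 synaptic adhesion molecules (-0.11, 3), 4 glutamate receptors (-0.18, 1), 8 genes of lipid metabolism (-0.86, 1), 25 genes of complex I (0.22, 4) and 12 of ATP synthase (0.01, 1). Of 29 potassium channels only 2 reached the count needed for testing, of 22 sodium and calcium channels 1 and of 15 GABA receptors 0, so these groups could not be compared at this depth. The ribosomal list summed to 41521 to 72653 CPM in spinal cord, 45644 to 52216 CPM in H2B-GFP brain, 17602 to 40658 CPM in txE12.5 experiment 161, 31376 to 38169 CPM in experiment 162 and 37044 to 41465 CPM in txP3.

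**Figure D4:**
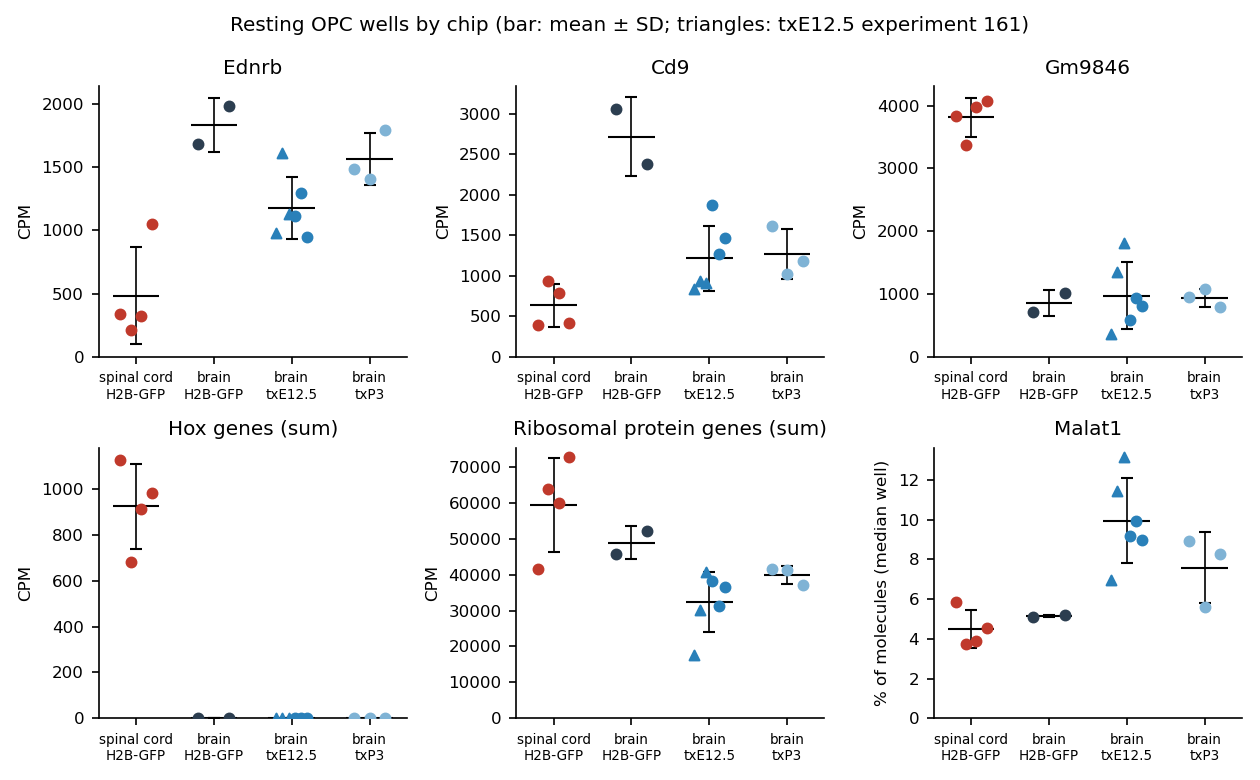
Values on each chip for *Ednrb*, *Cd9*, *Gm9846*, the summed Hox genes and the summed ribosomal protein genes (CPM), and the percent of molecules from *Malat1* in the median resting OPC well, by group, with triangles marking the txE12.5 chips of experiment 161. Hox molecules were at 0 on all 11 brain chips, and *Ednrb* was under 340 CPM on 3 of 4 spinal cord chips and 945 CPM or more on all other chips.

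Hox genes, which encode the homeodomain factors that set position along the body axis and are not transcribed in the forebrain, were too sparse for the gene-wise test. In spinal cord, 18 of 39 Hox genes were seen, with 64 molecules in 21 of 26 members (80.8%), or 682 to 1125 CPM on the 4 chips. *Hoxa7* had 13 molecules, *Hoxc8* 10, and *Hoxa5*, *Hoxa9* and *Hoxa10* 6 each. Among 167 brain members 0 had a Hox molecule, which allows a share of up to 1.80%, counting error only. This limits wells with a Hox molecule, not cells that express a Hox gene below what about 2151 molecules per well can show. Against a floor of 3 molecules over all brain members, *Hoxa7* was 23.3-fold, *Hoxc8* 17.9-fold and *Hoxa5* 10.7-fold higher in spinal cord. The floor covers counting error in brain only, as the few spinal cord molecules were taken as exact. Other wells of the spinal cord had them as well, 14 of 14 cycling and 44 of 57 committed wells. *Nkx2-1*, a factor of the ventral forebrain, had 19 molecules, all in txE12.5.

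As the molecules counted are 5′ ends, the sequence next to the start of a gene is where its count begins. The 250 bases upstream of the start are shown for *Ednrb*, the gene called in the most alternatives, and for 3 Hox genes seen in spinal cord (6, 6 and 4 molecules of *Hoxa5*, *Hoxa9* and *Hoxb4*) and in no brain member. Sequences are from RefSeq (GRCm38.p6), 5′ to 3′ on the strand of the gene, with each CG in capitals.
Ednrb: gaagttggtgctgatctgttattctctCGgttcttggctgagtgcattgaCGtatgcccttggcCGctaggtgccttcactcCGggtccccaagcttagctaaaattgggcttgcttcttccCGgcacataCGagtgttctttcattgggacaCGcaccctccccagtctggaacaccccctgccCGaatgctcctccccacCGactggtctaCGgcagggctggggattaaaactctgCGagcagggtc
Hoxa5: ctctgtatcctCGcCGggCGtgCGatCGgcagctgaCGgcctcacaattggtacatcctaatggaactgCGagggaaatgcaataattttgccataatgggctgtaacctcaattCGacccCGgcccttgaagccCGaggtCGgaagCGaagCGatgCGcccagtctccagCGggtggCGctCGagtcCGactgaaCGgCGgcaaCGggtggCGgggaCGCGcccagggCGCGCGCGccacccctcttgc
Hoxa9: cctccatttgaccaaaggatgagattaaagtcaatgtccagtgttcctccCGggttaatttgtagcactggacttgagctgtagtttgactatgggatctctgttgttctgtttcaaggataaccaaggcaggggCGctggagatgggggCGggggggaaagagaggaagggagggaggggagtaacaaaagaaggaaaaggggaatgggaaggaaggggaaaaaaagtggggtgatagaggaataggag
Hoxb4: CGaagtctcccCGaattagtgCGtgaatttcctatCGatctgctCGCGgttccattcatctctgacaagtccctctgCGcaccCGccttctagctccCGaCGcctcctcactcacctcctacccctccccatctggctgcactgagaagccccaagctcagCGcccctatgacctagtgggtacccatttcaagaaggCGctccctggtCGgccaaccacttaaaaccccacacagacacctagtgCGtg
The windows are chr14:103843702-103843951 (minus strand) for *Ednrb*, chr6:52204588-52204837 (minus) for *Hoxa5*, chr6:52227371-52227620 (minus) for *Hoxa9* and chr11:96318017-96318266 (plus) for *Hoxb4*. They held 11, 28, 3 and 14 CG, against a median of 6 over all promoters of this length. At least as many were held by 35.6, 7.61, 71.0 and 29.4% of promoters. No match to TGATNNAT, the joint motif of HOX and PBX proteins read on both strands, was found in any of the 4. Only 7.68% of 32851 promoters held this motif, so its absence from 4 does not set them apart.

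The region comparison ran together with other differences between experiments. *Xist*, the RNA of the inactive X chromosome, was seen in 0 of 26 members of the spinal cord and in 11 of 28 of the H2B-GFP brain, in 29 of 32 of txE12.5 experiment 161, and in 0 of 48 of experiment 162 and 0 of 59 of txP3. Y-linked genes gave 21 molecules in 10 spinal cord wells, 53 in 29 wells of experiment 162 and 38 in 25 wells of txP3, 6 in 5 wells of H2B-GFP brain and 0 in experiment 161. The share of wells with sex-linked transcripts thus differed between experiments, and its part in the differences between groups was not tested. *Malat1*, a nuclear RNA, took 3.77 to 5.85% of the median well on spinal cord chips, 5.12 to 5.18% in H2B-GFP brain, 6.97 to 13.2% in txE12.5 and 5.59 to 8.93% in txP3. Mitochondrial transcripts took 6.49 to 9.55, 5.77 to 6.36, 3.64 to 8.04 and 5.42 to 6.25% in the same order. The spike-in RNA gave medians of 203.5 and 166.5 molecules per well on H2B-GFP brain chips 21 and 22 and 57 to 98 on all other chips. The part of these measures in the differences was not tested.

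In the lineage-traced brain, txE12.5 minus txP3 asks whether resting OPCs marked in the embryo differ from those marked after birth. Of 970 genes 1 was called (0.103%), *Xist*, with 36 genes (3.71%) at an unadjusted p under 0.05 and 0 by DESeq2. *Xist* was present in experiment 161 alone: it was not called with experiment 162 as the only txE12.5 chips. *Id2*, an inhibitor of helix-loop-helix factors, had 796, 722 and 578 CPM in txP3 and 90 to 390 CPM in txE12.5, which do not overlap, as was the case for 2.27% of the genes. Its log2 fold change was -1.49 (adjusted p = 0.117 by edgeR, 0.0859 to 1 over the alternatives), and it was not called. *Itpr2*, a calcium channel of the endoplasmic reticulum, had 1.58 (adjusted p = 0.229 by edgeR) and *Tsix*, the antisense RNA of *Xist*, was at 0 on all txP3 chips and at least 11.1-fold higher in txE12.5 (adjusted p = 0.117 by edgeR). The next genes were *Igf2* (2.57) and *Pea15a* (1.15), higher in txE12.5, and *Atp5j2* (-1.11), *Ddx5* (-0.79), *Gm6402* (-0.95) and *Dnajc7* (-1.02), lower, with adjusted p of 0.788 to 0.996 by edgeR. *Igf2* is a gene of the leptomeningeal list, which moved with this comparison: its 10 genes summed to 403 to 1313 CPM on the txE12.5 chips and 98.4 to 365 CPM on the txP3 chips, with *Slc6a13* at 0 in all members. The collagen sum of the rule had a median of 114 and 0 CPM and endothelial markers of 139 and 44.3 CPM (of which *Pecam1* and *Cdh5* were at 0), and their part in the comparison was not tested. Without chip 15 or chip 17, both of txE12.5, 2 genes were called.

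As a description, *Pdgfra* had 1689 to 3717 CPM (median 2815) in txE12.5 and 2876, 3379 and 3514 CPM in txP3, and the groups overlapped. Outside the rule, the log2 fold change was 0.16 (95% interval -0.39 to 0.70) for *Ptprz1*, 0.13 (-0.40 to 0.65) for *Fabp7*, -0.13 (-0.87 to 0.62) for *Olig2* and 0.33 (-0.36 to 1.01) for *Gria2*. No gene was called among the 17 lineage factors (median 0.10), 12 proteoglycan genes (0.18), 7 receptors (-0.29) and 12 differentiation genes (0.21), and the median of all genes was 0.01. At an unadjusted p under 0.05 there were 1, 3, 0 and 3 of these genes, against 3.71% of all genes.

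The 2 txE12.5 experiments, of the same label, differed from each other in 5 genes (0.515%), with 90 (9.28%) at an unadjusted p under 0.05 and 3 called by DESeq2 (0.0236%). *Xist*, *Tsix* and *Kif1b*, a kinesin, were higher in experiment 161, and *Hspa8*, a chaperone (log2 fold change -1.28, adjusted p = 0.0299 by edgeR), and *Rpl4*, a ribosomal protein (-1.67, 0.0324), were lower. This fit took the 2 experiments as separate groups. That of txE12.5 minus txP3 kept their difference inside 1 group, so the counts of calls in the 2 fits are not directly comparable.

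The H2B-GFP brain was then set against the 9 lineage-traced chips, which compares reporters within 1 region. *Xist* was the 1 gene called (0.103%). It was called in 14 of 22 alternatives (adjusted p 7.66e-11 to 0.966 by edgeR or DESeq2), was lost without chip 20 (adjusted p = 0.110 by edgeR), and against txE12.5 alone its log2 fold change was 0.25, in place of 4.36. There were 81 genes (8.35%) at an unadjusted p under 0.05 and 0 by DESeq2. *Malat1* stood at 56117.5 and 61189 CPM in H2B-GFP brain and at 66654 to 119463 CPM on the traced chips, which do not overlap, as was the case for 7.11% of the genes. Its log2 fold change was -0.72 (SE 0.18, adjusted p = 0.0559 by edgeR, 0.00401 to 0.574 over the alternatives). *Rpl29*, a ribosomal protein, had 965 and 540 CPM against 0 to 394 CPM (log2 fold change 1.89, adjusted p = 0.0559 by edgeR). Of 65 ribosomal protein genes 0 were called, 17 had an unadjusted p under 0.05 and 42 lay above 0, with a median log2 fold change of 0.46 against -0.00 for all genes. The other leading genes were *Rpl12* (1.89), *Rpl23* (1.45) and *Rps13* (1.31), higher in H2B-GFP brain, and *Atxn7l3b* (-1.69), *Rgcc* (-1.82) and *Tomm6* (-2.25), lower, with adjusted p of 0.0875 to 0.145 by edgeR, and *Hnrnpd*, at 0 and at least 4.25-fold lower. Without chip 5, of txE12.5, 7 genes were called, without chips 15 or 17, of the same group, 2, and of txP3, 3 without chip 19 and 0 without chip 20.

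Among themselves the members varied somewhat more than counting alone gives. With each well thinned to 1000 molecules, the variance of a gene among the wells of a chip was pooled over chips and divided by its mean. Over 621 genes this ratio had a median of 1.32, where 1 is counting alone, and 12 genes exceeded 2. *Malat1* was far ahead at 17.0, then *Sparcl1*, a matrix protein, at 3.52, *Hmgn2*, a chromatin protein, at 3.07, *Tmsb4x*, which binds actin, at 2.77, *Xist* at 2.71, *Fabp7* at 2.51 and *Cd9* at 2.18. Of the leading 15 genes 10 were the same without thinning. Deviations were taken from the mean of each chip, so differences between chips and groups do not enter this variance.

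Lists were then followed across wells, after removal of the chip means. The ribosomal list went with complex I (Pearson r = 0.49 over 193 wells), cytochrome c oxidase (0.45) and ATP synthase (0.43), and went against the proteoglycan list (-0.48), the marker genes of the rule (-0.35) and *Malat1* (-0.22). These are descriptions, since the points share the chip's libraries and a fixed total of 1000 molecules, in which a larger share for one list leaves less for the others. The replication and mitotic lists had r = 0.24, and immediate early genes and the ribosomal list -0.17. Immediate early genes ran from 0 to 16 molecules per thinned well with a median of 1, and 86 of 193 wells had 0. *Resp18*, a secretory granule protein, was at 0 in 147 thinned wells.

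**Figure D5:**
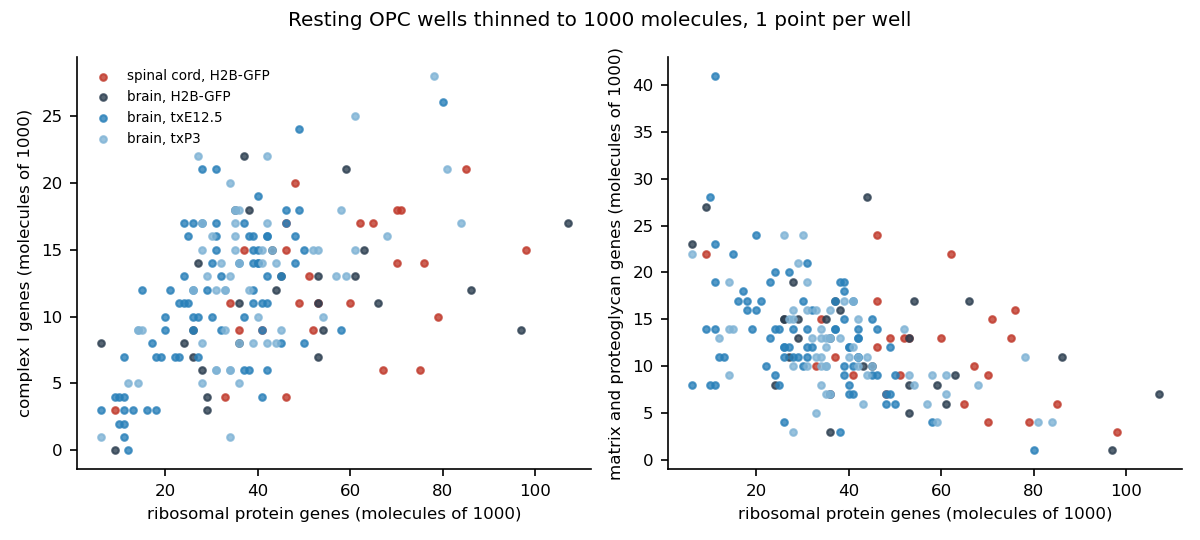
Molecules per well after thinning to 1000, for the ribosomal protein list against the complex I list and against the matrix and proteoglycan list, with each point 1 of 193 resting OPC wells, coloured by group. With chip means removed the correlation was 0.49 and -0.48.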

How the data were processed

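The authors deposited a table of whole-number molecule counts, counted by unique molecular identifier at the 5′ ends of transcripts (STRT-seq on Fluidigm C1 chips), with wells in columns. The submitters' processing notes name the genome build mm10, and the aligner is not given in the sources used here. No column of another series' samples was found (0). Rows of mitochondrial genes, spike-ins and reporters (146 of 24487) were left out of the molecule totals. Wells with at least 1000 molecules were used, the cut-off of the authors. No doublet caller was run. The authors checked the wells by imaging and also called some wells doublets from genes of more than 1 lineage. Which wells these were is not given in the sources used here, so they may be among the members. No well was identical between chips. Chip 23 of P7 spinal cord was left out by the rule, as was chip 9, whose labels and file disagree on its age and which was assigned to no group.

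Member wells were summed per chip, and chips with at least 5 members (14 of 15) were tested with edgeR 4.0.16 (filterByExpr, TMM, quasi-likelihood test, R 4.3.3) in 1 fit over 4 groups, with Benjamini-Hochberg adjustment over 970 genes. Chips are the replicates. The labels do not say which chips came from which animals, so p-values measure the spread between chips only, which may be technical. A lower sum can come from fewer cells or less RNA per cell, which these sums, scaled to a common total, cannot tell apart. In simulated counts at a log2 fold change of 2, 52% of 200 changed genes among 970 were recovered for spinal cord minus brain, 91% for txE12.5 minus txP3 and 80% for H2B-GFP minus lineage-traced brain. Named genes were the 10 largest called changes in each direction with at least 30 molecules and no overlap of chips, called genes of any list, the marker genes of the rule and the OPC genes named by the study, and, where fewer than 5 were called, the 5 lowest p in each direction. Other named genes were chosen after their values were seen. The members, lists and tests were chosen with earlier results of these data known. Alternatives were DESeq2 1.42.0, other size factors, no filter, other minimums of wells and molecules, thinning, and leaving out each chip or wells with markers of other cells. Intervals are at 95%, from the SE with a normal quantile. Levels and figures were made with Python 3.11.15. Gene positions are from GENCODE M21 and promoters from RefSeq. Results for some genes are not reported here.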

Additional observations from a re-analysis of the deposited data

Results flagged for a closer look

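Each value below is 1 chip that stood apart from the other chips of its group, at the highest or lowest end, by Dixon's test of the gap at the 95% level. Of 177 groups of chips and measures tested, 22 were so marked, and chance marks about 1 in 20. On spinal cord chip 26, with 4 members, these were pericyte markers at 4427 CPM, leptomeningeal markers outside the rule at 2530 CPM, endothelial markers at 70.3 CPM, *Igf2* at 562 CPM and *Ednrb* at 1054 CPM. On spinal cord chip 10 they were *Eef1a1* at 2476, *Lhfpl3* at 2025, *Itpr2* at 844, *Rfx4* at 56.3 and *Neu4* at 56.3 CPM, and on chip 12 microglia markers at 65.1 and *Fos* at 65.1 CPM. The values of 56.3 to 70.3 CPM are of a few molecules at most. Pericyte, endothelial and microglia markers were each at 0 on 3 of the 4 spinal cord chips.

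In txE12.5 brain, chip 5 stood apart for the summed lineage transcription factors (12964 CPM), ATP synthase genes (3598 CPM) and *Rfx4* (178 CPM). Chip 13 did so for *Fosb* (313 CPM), *Sox11* (1029 CPM) and *Ddx5* (358 CPM), chip 16 for *Cspg4* (1474 CPM) and *Prom1* (113 CPM), chip 15 for microglia markers (131 CPM) and chip 17 for *Resp18* (614 CPM).

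Signals also appeared in data that the comparisons do not use. At E13.5, 0.797% of wells met the molecule part of the rule. The GFP reporter was seen in 34.6% of members in spinal cord, 25% in H2B-GFP brain, 22.5% in txE12.5 and 16.9% in txP3, and the cre reporter in 6.25% of members in txE12.5.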

How the results depend on the processing

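For spinal cord minus brain in the H2B-GFP line 12 genes were called, 6 by DESeq2 (5 of them among the 12), 7 without a filter on low counts, 30 with only the 5 chips compared in the fit (13 higher and 17 lower, 467 genes), 24 with all brain chips as the brain group, 0 with wells of at least 2000 molecules, 0 without wells holding other markers, and 3 to 10 leaving out 1 chip at a time. For txE12.5 minus txP3 (1 called) DESeq2 called 0, no filter 3, chips with at least 10 members 0, no wells with other markers 0, experiment 161 alone 3, experiment 162 alone 0, and leaving out 1 chip 1 to 2. For H2B-GFP minus lineage-traced brain (1 called) DESeq2 called 0, only the chips compared 2, at least 10 members 0, at least 4 members 0, wells of at least 2000 molecules 0, thinned wells 2, no wells with other markers 2, and leaving out 1 chip 0 to 7. Between txE12.5 experiments DESeq2 called 3 of 5. There were 120 members at 2000 molecules, and 8 of the 15 most variable genes were shared with a minimum of 100 molecules per gene. Some settings left fewer genes, wells and chips, and the cause of these changes in the calls was not tested.

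Of 1233 values of single genes under an alternative, 63 (of 21 results) changed sign, from -0.76 to 0.65 in log2 fold change. In the alternative 0 of these were called. The values include those of *Pdgfra*, *Cspg4*, *Lhfpl3*, *C1ql1* and *Olig1*, by which the wells were chosen. For these marker genes the fold changes are descriptions, and whether they were called or not is no test of a difference between groups. In spinal cord minus brain the log2 fold changes of other sign were, without wells holding other markers *Cspg4* 0.087, *Lhfpl3* -0.19 and *Resp18* -0.25, with all brain chips *Olig1* 0.079, *Resp18* -0.25 and *Cnp* 0.23, with txE12.5 as the brain *Olig1* 0.26, *Resp18* -0.76 and *Cnp* 0.29, with txP3 as the brain *Olig1* 0.21, *Resp18* -0.039 and *Cnp* 0.65, without the filter *Resp18* -0.19, at 4 members per chip *Resp18* -0.12, in thinned wells *Bcan* 0.043. Leaving out 1 chip at a time, spinal cord minus brain ran for *Resp18* from -0.57 to 1.16 and *Cnp* from -0.83 to 0.13. In txE12.5 minus txP3 the log2 fold changes of other sign were, at 10 members per chip *Pdgfra* 0.024, *Cspg4* 0.026 and *Olig1* 0.028, without wells holding other markers *Cspg4* 0.0104 and *Olig1* 0.067, with experiment 162 alone *Cspg4* 0.046, *Lhfpl3* -0.0602, *Jun* 0.11, *Bcan* -0.38 and *Sox11* -0.40, with experiment 161 alone *C1ql1* -0.28 and *Olig1* 0.048, with only the chips compared *Olig1* 0.016, with wells of at least 2000 molecules *Olig1* 0.076, without the filter *Bcan* -0.029 and *Ptprz1* -0.073. Leaving out 1 chip at a time, txE12.5 minus txP3 ran for *Cspg4* from -0.28 to 0.0301, *Olig1* from -0.18 to 0.061, *Bcan* from -0.0603 to 0.32 and *Sox11* from -0.32 to 1.13. In H2B-GFP minus lineage-traced brain the log2 fold changes of other sign were, with wells of at least 2000 molecules *Lhfpl3* -0.23, *C1ql1* -0.027, *Bcan* -0.046 and *Ptprz1* -0.12, with txE12.5 as the traced group *Lhfpl3* -0.044, *C1ql1* -0.043 and *Bcan* -0.045, without wells holding other markers *Resp18* 0.039, *Bcan* -0.25 and *Ptprz1* -0.22, without the filter *Qk* 0.0051, in thinned wells *Qk* 0.30 and *Bcan* -0.015, with txP3 as the traced group *Qk* 0.16. Leaving out 1 chip at a time, H2B-GFP minus lineage-traced brain ran for *C1ql1* from -0.028 to 0.37, *Resp18* from -1.63 to 0.13, *Qk* from -0.14 to 0.051 and *Bcan* from -0.31 to 0.33.

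The stricter members (OPC sum of at least 10) could not be fitted, since 35 wells remained and 2 chips had 5 of them. At least 10 members per chip left no spinal cord chip. A term for the experiment was not possible, as no experiment holds both traced groups. The settings with 4 members per chip, single brain or traced groups and single experiments were added after seeing the data. No paired analysis was possible because chip numbers are unique to a chip and no number is shared between groups. Counts of a few molecules per well limit the tests to 970 genes, and leave most channels, GABA receptors and Hox genes outside them.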
